A study of Mus musculus with 6 samples.

Results

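The genes described here encode neuropeptide precursors, the granins that are packed with them into secretory granules, the enzymes that turn precursors into active peptides, and 1 peptide-binding protein, Crhbp. They are 37 genes named by symbol for their function, and the rule uses no measured value other than a minimum of reads. A gene was kept where at least 10 reads were counted in at least 2 of the 6 libraries, which left 32 of the 37. All 32 were among the 18705 genes that passed the count filter and were tested, out of 54134 entries in the files. The 5 genes not kept were Gal, Hcrt, Oxt, Avp and Nmb, the precursors of galanin, orexin, oxytocin, vasopressin and neuromedin B, which had at most 5, 8, 2, 9 and 19 reads in any library.

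The libraries were bulk RNA-seq of mouse prefrontal cortex, made from ribosome-depleted total RNA of mice aged 6 to 8 weeks, with 2 mice in each of 3 groups. The first group was wild type (a cross of C57BL/6 and C3H) given vehicle. The second was heterozygous for Shank3 +/∆C, an allele of a postsynaptic scaffold gene used to model autism, and was given vehicle. The third carried the same allele and was given GSK-LSD1, an inhibitor of the histone demethylase LSD1. The labels do not name the strain of the mutant mice or the dose, route and timing of GSK-LSD1. The comparisons ask how the mutant differs from wild type and how the inhibitor moves the mutant's transcriptome. The tissue was lysed whole, so fewer cells of a type and less RNA per cell cannot be told apart, and with 2 mice a group the p-values measure the spread between these mice only.

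Total counts ran from 14133834 to 28646960 reads per library. A level of 3 reads, used as the floor, corresponded to 0.105 to 0.212 CPM on these unscaled totals. CPM are reads per 1000000 reads of a library, and for all other levels the library sizes were scaled by the trimmed mean of M-values (TMM). Levels are given for library 1 and then library 2 of a group. Counts over the whole Shank3 gene were 152.9 and 159.9 CPM in wild type, 145.8 and 174.3 for Shank3 vehicle, and 159 and 148.3 under GSK-LSD1, so the groups overlapped and this count did not check the genotype. The summed level of 14 oligodendrocyte markers set some libraries apart: 2736 and 2482 CPM in wild type, 6216 and 6264 for Shank3 vehicle, and 2521 and 5913 under GSK-LSD1. The 2 libraries of the GSK-LSD1 group thus lay at opposite ends of that range. All 15 excitatory cortical neuron markers passed the count filter and summed to 3453 to 4712 CPM. Results that rest on 1 GSK-LSD1 library are given with and without it. Gene positions below are those of GENCODE M21 on GRCm38.

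**Figure D1:**
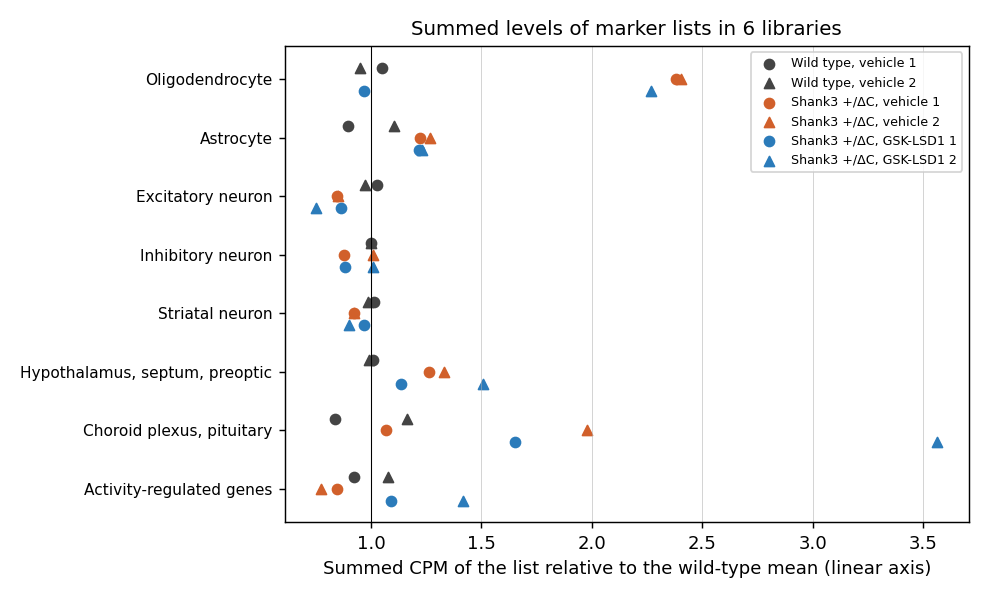
Summed level of each marker list in each library, in CPM divided by the wild-type mean of that list, on a linear axis; colours mark the groups and shapes the replicate number. Oligodendrocyte markers stand at 2482 to 2736 CPM in wild type and GSK-LSD1 library 1 and at 5913 to 6264 CPM in the other 3 libraries, and choroid plexus and pituitary markers are highest in GSK-LSD1 library 2.

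Neuropeptides are made as long precursors that enter the regulated secretory pathway and are sorted into dense-core vesicles. There the prohormone convertases Pcsk1 and Pcsk2 cut at paired basic residues, carboxypeptidase E (Cpe) trims the basic residues left at the end, and peptidylglycine alpha-amidating monooxygenase (Pam) amidates many of the products. Granins help to build the granules, and several are themselves cut into peptides. In the cortex many peptide precursors are made by subsets of GABAergic interneurons, where Sst, Npy and Vip serve as class markers. Processing enzymes and granins are found in neurons broadly.

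The promoters of several of these genes carry a cAMP response element (CRE), through which CREB-family factors act, so the stretch before the start was read for the members that hold one. The searched motifs, on both strands of 300 bases (250 before to 50 after each RefSeq start, GRCm38.p6), were the full CRE TGACGTCA, its 5-letter core TGACG, the EGR site GCGGGGGCG and the AP-1 site TGACTCA. RefSeq promoters were found for 31 of the 37 members. Vgf, Penk, Pnoc, Crh, Grp and Cpe had no entry and were not searched, so whether they hold these motifs is not known here. The full CRE was present in 5 of the 31, Sst, Scg2, Chgb, Pcsk1 and Cartpt, against 1.79% of all 32851 promoters and 2.03% of 27025 genes. These 5 are printed 5′ to 3′ on the gene's strand, as the 120 bases before the RefSeq start, with the CRE in capitals.
Sst (chr16:23890845-23890964, minus strand): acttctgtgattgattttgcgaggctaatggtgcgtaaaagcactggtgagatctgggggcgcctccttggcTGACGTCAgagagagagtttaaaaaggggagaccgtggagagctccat
Scg2 (chr1:79440027-79440146, minus strand): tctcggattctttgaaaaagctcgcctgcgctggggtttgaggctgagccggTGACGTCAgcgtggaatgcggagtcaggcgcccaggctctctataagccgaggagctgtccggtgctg
Chgb (chr2:132781522-132781641, plus strand): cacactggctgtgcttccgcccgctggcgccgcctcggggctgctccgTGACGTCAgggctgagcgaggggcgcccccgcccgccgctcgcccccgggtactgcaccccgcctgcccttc
Pcsk1 (chr13:75089737-75089856, plus strand): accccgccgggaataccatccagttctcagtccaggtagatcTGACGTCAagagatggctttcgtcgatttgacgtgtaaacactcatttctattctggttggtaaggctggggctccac
Cartpt (chr13:99900684-99900803, minus strand): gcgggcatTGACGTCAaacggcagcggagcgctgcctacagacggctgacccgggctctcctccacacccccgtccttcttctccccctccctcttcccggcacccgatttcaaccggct
The element began at position -48 of Sst, -68 of Scg2, -72 of Chgb, -78 of Pcsk1 and -112 of Cartpt, counted from the RefSeq start. GENCODE release M21 places the outermost start of these 5 genes within or upstream of the printed bases, so the positions hold for the RefSeq start only. The TGACG core, which also counts the full CREs, was found in 18 of the 31 members, against 20.8% of promoters and 23% of genes. The AP-1 site was found in 2 members, Nts and Pcsk1n, against 5.2% of promoters and 5.95% of genes.

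The EGR site was found in 2 members, Pcsk2 and Chgb, against 2.91% of promoters and 3.31% of genes. Pcsk2 is shown because it is the single member that edgeR called with the settings used throughout, though other tools and settings called others, and because its promoter holds this site at 3 positions, -177, -118 and -108. The 200 bases before its RefSeq start are printed with the EGR sites in capitals.
Pcsk2 (chr2:143545933-143546132, plus strand): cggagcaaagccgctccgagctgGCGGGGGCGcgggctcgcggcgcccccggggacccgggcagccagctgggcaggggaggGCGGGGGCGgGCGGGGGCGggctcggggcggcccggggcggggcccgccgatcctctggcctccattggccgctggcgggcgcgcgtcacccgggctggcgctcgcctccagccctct
These matches describe letters in a window and are not measured binding.

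Divided by exonic length, so that genes can be compared, the processing enzyme Cpe stood highest of the 32 members, at a mean of 666 CPM per kilobase over the 6 libraries. It was followed by the cholecystokinin precursor Cck (229.9 CPM per kilobase), the granin Chgb (140.2) and the somatostatin precursor Sst (127). The remaining granins lay between 35.2 (Resp18) and 101 CPM per kilobase (Scg5). Among the convertases, Pcsk2 (75.4 CPM per kilobase) stood above Pcsk1 (20.04). The low end was made up of precursors such as Crh (2.10 CPM per kilobase), Nts (1.53), Trh (1.28) and Pomc (1.17), and of Ecel1 (0.666), an endopeptidase-like membrane protein. The widest spreads between libraries were of low members, the highest library being 8.26 times the lowest for Nts and 5.55 times for Ecel1. Not all low members spread widely, with 1.44 times for Pomc and 1.59 times for Crh. The narrowest spreads were 1.11 times for Pcsk1n and 1.15 times for Chgb.

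**Figure D2:**
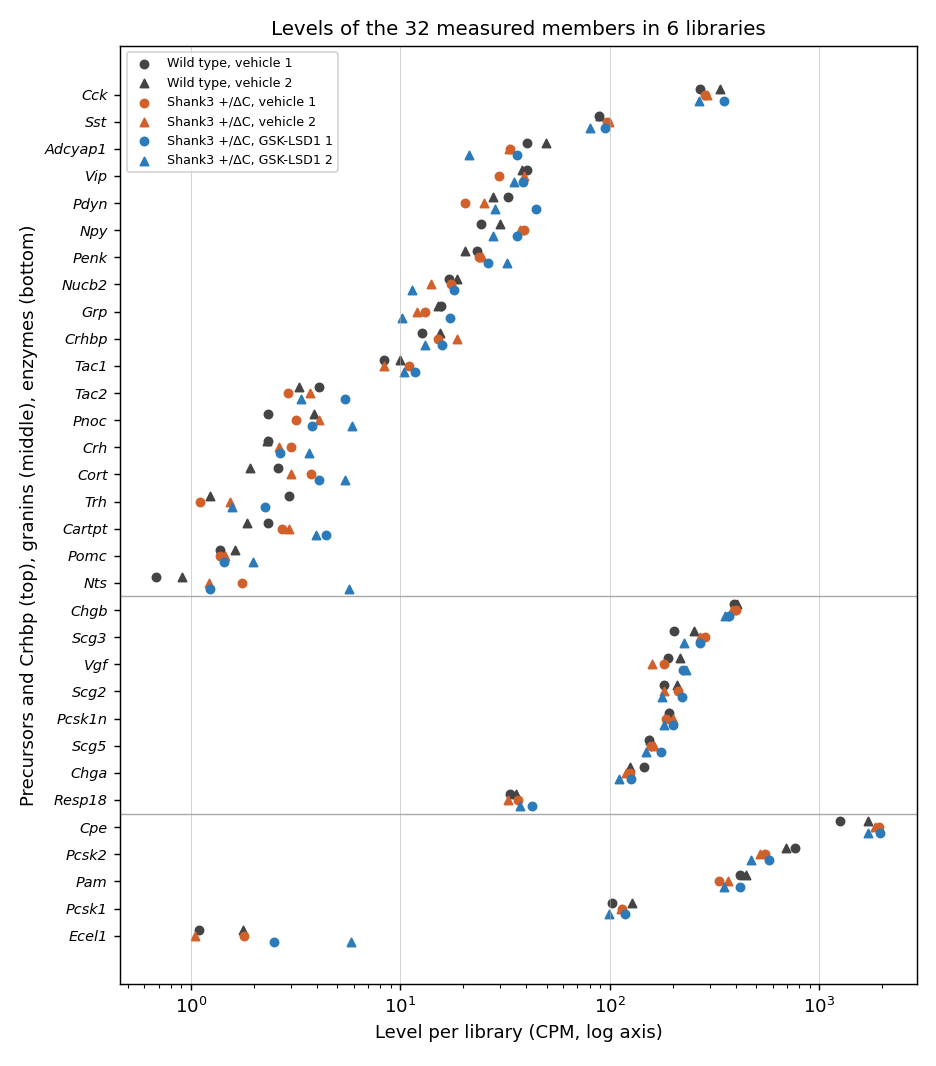
Level of each of the 32 members in each of the 6 libraries, in CPM on a log axis, with precursors and Crhbp at the top, granins in the middle and enzymes at the bottom; colours mark the groups and shapes the replicate number. Cpe stands highest at 1262 to 1957 CPM, and Nts and Ecel1 are each highest in GSK-LSD1 library 2, at 5.66 and 5.79 CPM.

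In Shank3 vehicle against wild type, the members were spread evenly around 0: their median log2 fold change was -0.005, beside 0.02 over all tested genes, with 16 members above 0 and 16 below. The convertase Pcsk2 and the amidating enzyme Pam were lower in both mutant libraries, with log2 differences of -0.44 and -0.31, and Npy and the carboxypeptidase Cpe were higher in both, with 0.49 and 0.35, all without passing the test. None of the 32 passed edgeR's quasi-likelihood test at a Benjamini-Hochberg adjusted p under 0.05, a threshold that 1.27% of all tested genes passed. At an unadjusted p under 0.05, 3 members were higher (Cpe, Npy and Scg3, 9.38% of members, beside 5.81% of all genes) and 3 were lower (Pam, Pcsk2 and Vgf, also 9.38%, beside 8.24%). The 2 mutant libraries lay above both wild-type libraries for 10 members (31.2%, beside 23.1% of all genes) and below both for 7 (21.9%, beside 23.1%). DESeq2 called 1 member, Pcsk2 (3.12% of members, beside 3.22% of all genes), and limma-voom called 0 (beside 0.732%). Since 1 member is 3.12% of 32, these shares differ from those of all genes by a few members at most, and nothing is read from them.

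Among the processing enzymes, Pcsk2 (chr2:143546156-143816285, plus strand), the convertase that makes the final cuts in many precursors, was counted at 765 and 693 CPM in wild type, 553 and 520 for Shank3 vehicle, and 575 and 470 under GSK-LSD1. All 4 mutant libraries lay below both wild-type libraries. The means were 729 ± 51.4 (SD, n = 2), 537 ± 23.2 and 522 ± 74.3 CPM. The log2 difference of Shank3 vehicle from wild type was -0.44 ± 0.12 (SE), with an edgeR adjusted p of 0.0771, which ran from 0.00672 to 0.656 over 19 alternative analyses. The alternatives that called it were no filter on low counts, DESeq2, the 4 libraries alone, and leaving out GSK-LSD1 library 1 (adjusted p = 0.0206) or 2 (0.0192). Adding the mean log2 level of the oligodendrocyte markers to the model as a covariate gave a difference of -0.25. Those markers were low in both wild-type libraries and high in both Shank3 vehicle ones. Here and below, the fit of this covariate thus rested mainly on the GSK-LSD1 pair and cannot separate genotype from marker level. Pcsk2 shares 260 exonic bases, 3.3% of its exonic length, with the antisense gene Pcsk2os1. Pcsk2os1 itself lay at 3.76 to 5.97 CPM in all libraries, far below Pcsk2.

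Pam (chr1:97795114-98095646, minus strand) was at 417 and 449 CPM in wild type, 331 and 366 for Shank3 vehicle, and 420 and 351 under GSK-LSD1. The Shank3 vehicle libraries lay below both wild-type ones, and GSK-LSD1 library 1 lay in the wild-type range. The log2 difference of Shank3 vehicle from wild type was -0.31 ± 0.12, with an edgeR adjusted p of 0.214 (0.0812 to 0.903 over the alternatives). Cpe (chr8:64592542-64693054, minus strand) differed the other way, with 1262 and 1712 CPM in wild type, 1929 and 1856 for Shank3 vehicle, and 1957 and 1709 under GSK-LSD1. Wild-type library 1 was the lowest, and wild-type library 2 lay within the GSK-LSD1 range. The log2 difference in Shank3 vehicle was 0.35 ± 0.14, with an edgeR adjusted p of 0.257 (0.0895 to 0.952), and it ran from 0.14 without wild-type library 1 to 0.58 without wild-type library 2. Cpe is also made by astrocytes, and the summed level of 12 astrocyte markers was 4019 and 4953 CPM in wild type, 5473 and 5686 for Shank3 vehicle and 5464 and 5515 under GSK-LSD1. With the oligodendrocyte covariate the difference was -0.10 for Pam (adjusted p = 0.903) and 0.58 for Cpe (adjusted p = 0.195). The part of the astrocyte shift in these results was not tested.

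The other convertase, Pcsk1, overlapped between all groups, at 102 to 127 CPM in wild type, 113 to 115 for Shank3 vehicle and 98.6 to 118 under GSK-LSD1. The reads of Pcsk2 per read of Pcsk1 were 7.5 and 5.45 in wild type, 4.82 and 4.59 for Shank3 vehicle, and 4.87 and 4.77 under GSK-LSD1. Scg5 encodes 7B2, the chaperone that proPcsk2 needs for its activation, and lay at 148 to 175 CPM in all libraries. Pcsk2 reads per Scg5 read were 4.95 and 4.47 in wild type and 3.17 to 3.52 in the 4 mutant libraries. Both ratios separated wild type from mutant without overlap, treated or not. The Pcsk2 level alone did so as well, and the ratios add no independent evidence.

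Of the granins, Scg3 (chr9:75643189-75684056, minus strand), which tethers granin aggregates to the granule membrane, was at 203 and 252 CPM in wild type, 284 and 268 for Shank3 vehicle, and 270 and 226 under GSK-LSD1. The Shank3 vehicle libraries lay above both wild-type ones, and the GSK-LSD1 libraries straddled wild-type library 2. The log2 difference in Shank3 vehicle was 0.28 ± 0.12, with an edgeR adjusted p of 0.308 (0.155 to 0.948 over the alternatives). It was 0.13 without wild-type library 1, 0.44 without wild-type library 2 and 0.53 with the oligodendrocyte covariate. Vgf (chr5:137026392-137033351, plus strand), a granin-like precursor that neurotrophins and activity induce, was at 189 and 217 CPM in wild type, 182.1 and 158 for Shank3 vehicle, and 225 and 230 under GSK-LSD1. The 3 groups did not overlap, with Shank3 vehicle lowest and GSK-LSD1 highest. Its log2 difference in Shank3 vehicle was -0.26 ± 0.11, with an edgeR adjusted p of 0.301 (0.187 to 0.857). Leaving out wild-type library 2 gave -0.15, and leaving out Shank3 vehicle library 2 gave -0.16. The remaining granins, Scg2, Scg5, Chga, Chgb, Resp18 and the Pcsk1 inhibitor Pcsk1n, differed from wild type by between -0.14 and 0.04 in log2, and the median of all 8 was 0.00.

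Among the precursors of cortical interneurons, Npy (chr6:49822710-49829507, plus strand), the neuropeptide Y precursor, was at 24.2 and 29.8 CPM in wild type, 38.8 and 37.3 for Shank3 vehicle, and 35.9 and 27.7 under GSK-LSD1. Shank3 vehicle lay above every library of the other groups, and GSK-LSD1 library 2 lay inside the wild-type range. The log2 difference in Shank3 vehicle was 0.49 ± 0.14, with an edgeR adjusted p of 0.0988 (0.0210 to 0.724 over the alternatives). It passed without a filter on low counts, with the 4 libraries alone and with the oligodendrocyte covariate (0.82, adjusted p = 0.0453). The fit of that covariate rested mainly on the GSK-LSD1 pair, so the larger value does not separate Npy from cell composition. Without GSK-LSD1 library 1 or 2 the difference was 0.48. Sst, which many Npy neurons also express, was at 89.3 and 90.2 CPM in wild type and 97.2 and 98.6 for Shank3 vehicle, so Sst reads per Npy read were 3.69 and 3.03 in wild type and 2.51 and 2.65 for Shank3 vehicle. Vip, the precursor of vasoactive intestinal peptide, was at 40.2 and 38.3 against 29.6 and 39.05 CPM, and Cck at 271 and 336 against 283 and 291 CPM, both overlapping.

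Cort (chr4:149125034-149126763, minus strand), which encodes the somatostatin relative cortistatin, was lowest in wild type and highest under GSK-LSD1, with 2.60 and 1.92 CPM in wild type, 3.72 and 2.99 for Shank3 vehicle and 4.07 and 5.45 under GSK-LSD1. No 2 groups overlapped. The log2 difference in Shank3 vehicle was 0.60 ± 0.30, with an edgeR adjusted p of 0.398 (0.340 to 0.929). It was 0.36 without wild-type library 2 and 0.22 with the oligodendrocyte covariate. The neurotensin precursor Nts (chr10:102481756-102490486, minus strand) was at 0.684 and 0.903 CPM in wild type, 1.75 and 1.22 for Shank3 vehicle, and 1.23 and 5.66 under GSK-LSD1, a spread in which a single library stood far above the other 5. Its log2 difference in Shank3 vehicle was 0.87 ± 0.66 (edgeR adjusted p = 0.632). With the oligodendrocyte covariate, whose fit rested mainly on the GSK-LSD1 pair, it was -0.82. Trh (chr6:92242061-92244650, minus strand), which encodes thyrotropin-releasing hormone, was at 2.94 and 1.23 CPM in wild type, 1.10 and 1.54 for Shank3 vehicle, and 2.25 and 1.57 under GSK-LSD1, and wild type overlapped both mutant groups. Its log2 difference of -0.60 ± 0.46 (edgeR adjusted p = 0.619, range 0.269 to 0.991) rested on wild-type library 1 and was 0.10 without it, -1.16 without wild-type library 2, -0.39 without Shank3 vehicle library 1 and -0.34 in limma-voom.

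The dynorphin precursor Pdyn was at 32.6 and 27.6 CPM in wild type and 20.3 and 25.2 for Shank3 vehicle, while the enkephalin precursor Penk was at 23.2 and 20.4 against 23.7 and 24.6 CPM. Pdyn reads per Penk read were 1.4 and 1.35 in wild type and 0.858 and 1.02 for Shank3 vehicle. The groups did not overlap in this ratio, nor in the Pdyn level alone. The precursors found mainly in other neurons were Adcyap1, Cartpt, Pomc and Nucb2. Adcyap1, which encodes the peptide PACAP of excitatory neurons, was at 40.2 and 49.4 CPM in wild type and 33.5 and 32.8 for Shank3 vehicle, lower in both. The summed level of 15 excitatory neuron markers was 4712 and 4472 CPM in wild type and 3876 and 3913 for Shank3 vehicle, also lower in both, and its part in the Adcyap1 values was not tested. The summed level of 24 inhibitory neuron markers outside the members was 1521 and 1520 CPM against 1337 and 1533 CPM. Of the 23 tested, 15 were above 0 and 8 below. EdgeR, DESeq2 and limma-voom each called 2 of them lower, Reln and Nos1, and 0 higher.

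**Figure D3:**
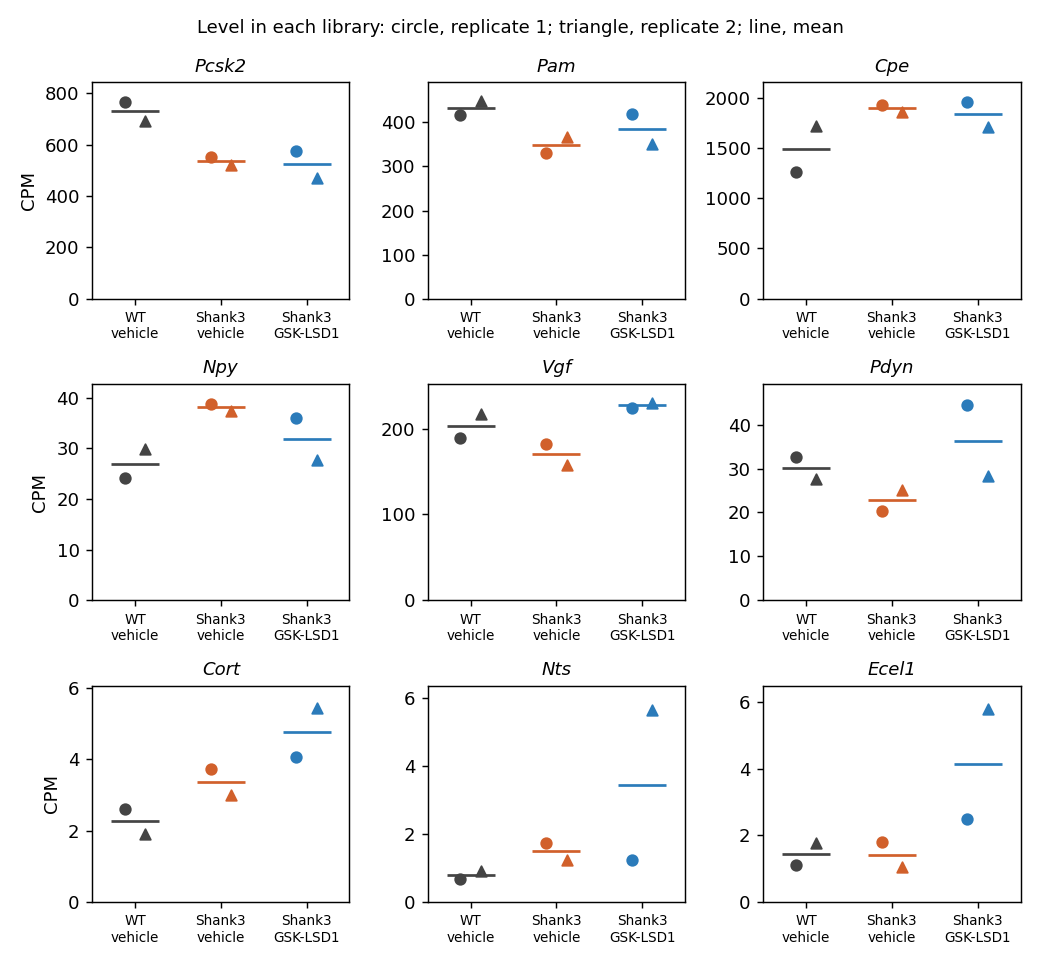
Level of selected members in each library, in CPM on linear axes starting at 0, with a panel for each of 9 members, the 2 libraries of a group as points and the group mean as a line. Pcsk2 lies lower in all 4 mutant libraries, Vgf and Pdyn are higher under GSK-LSD1 than in Shank3 vehicle, and Nts and Ecel1 are high in 1 GSK-LSD1 library.

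GSK-LSD1 against vehicle in the mutant gave no called member either. The treated values lay above the vehicle ones more often than below, though without a call. The median log2 difference was 0.13 over all 32 members, with 20 above 0, beside -0.00 over all tested genes. It was 0.23, with 12 above 0, over the 14 precursors grouped here under interneurons, several of which other neurons make as well. Without GSK-LSD1 library 1 the median of the 32 was -0.04, so the median above 0 rested on that library. None of the 32 passed the adjusted threshold in edgeR (beside 0.107% of all genes), DESeq2 (beside 0.187%) or limma-voom (beside 0.0855%). At an unadjusted p under 0.05, edgeR had 3 members higher (Ecel1, Pdyn and Vgf, 9.38%, beside 3.18% of all genes) and 0 lower (beside 2.52%). Both GSK-LSD1 libraries lay above both Shank3 vehicle libraries for 8 members (25%, beside 17% of all genes) and below both for 3 (9.38%, beside 16.6%).

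The 8 that lay above were Cartpt, Cort, Ecel1, Pdyn, Penk, Resp18, Trh and Vgf, and the 3 below were Chgb, Npy and Sst. Vgf, whose values are given above, differed by 0.42 ± 0.11 in log2, or 1.34-fold, with an edgeR adjusted p of 0.336, which ran from 0.0947 to 1.0 over the alternatives while the difference ran from 0.32 to 0.53. Vgf reads per read of the granin Scg2 were 0.862 and 0.872 in Shank3 vehicle, 1.02 and 1.29 under GSK-LSD1, and 1.04 in both wild-type libraries. The vehicle and inhibitor libraries were separate in this ratio, which holds the same Vgf reads and adds no independent evidence. Of the other 7 granins, the log2 differences lay between -0.15 and 0.21, and the median of all 8 was 0.01.

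Pdyn (chr2:129686565-129699844, minus strand) was at 20.3 and 25.2 CPM in Shank3 vehicle and 44.4 and 28.3 under GSK-LSD1. Both treated libraries were above both vehicle libraries, and treated library 2 lay in the wild-type range of 27.6 to 32.6 CPM. The log2 difference was 0.69 ± 0.20, with an edgeR adjusted p of 0.581 (5.71e-04 to 0.885 over the alternatives). It was 0.97 without GSK-LSD1 library 2 (adjusted p = 0.00254) and 0.32 without library 1 (adjusted p = 0.775), 0.39 with the oligodendrocyte covariate, and it also passed with no filter on low counts. Pdyn reads per Penk read were 1.7 and 0.878 under GSK-LSD1, so the opioid precursors did not keep 1 ratio in the treated pair. Striatal neurons also express Pdyn and Penk, and the summed level of 18 striatal markers was 793.3 and 792.6 CPM in Shank3 vehicle and 832 and 772.9 under GSK-LSD1.

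Ecel1 (chr1:87147655-87156521, minus strand) was at 1.09 and 1.77 CPM in wild type, 1.79 and 1.04 for Shank3 vehicle, and 2.501 and 5.79 under GSK-LSD1. Both treated libraries lay above the other 4. The log2 difference from Shank3 vehicle was 1.52 ± 0.44, with an edgeR adjusted p of 0.463 (0.0225 to 1.0, passing with no filter on low counts), and it was 0.82 without GSK-LSD1 library 2 and 2.02 without library 1. For Nts the log2 difference of 1.16 ± 0.60 (edgeR adjusted p = 0.924, range 0.0872 to 1.0) reversed to -0.27 without GSK-LSD1 library 2, and was 1.92 without library 1, 1.77 with the oligodendrocyte covariate and 0.60 in limma-voom. Nts and Ecel1 are strongly expressed in several subcortical regions, and 39 markers of hypothalamus, septum and preoptic area summed to 39.6 to 40.4 CPM in wild type, 50.6 to 53.3 for Shank3 vehicle, and 45.5 and 60.2 under GSK-LSD1. Of these, 20 had at most 3 reads in every library and 8 were at 0 throughout, among them Six6, Rax and Nr5a1. Of the 9 tested, 8 were above 0 in Shank3 vehicle against wild type and 4 in GSK-LSD1 against Shank3 vehicle. EdgeR called 0 of them in any comparison, and DESeq2 called Slc17a6 higher in GSK-LSD1 against wild type. The sum of 13 choroid plexus and pituitary markers was highest in GSK-LSD1 library 2, where Nts and Ecel1 were highest too. It was 23.0 CPM there, against 5.41 to 12.8 in the other 5. Of the 13, 5 had at most 3 reads in every library, among them the pituitary genes Prl, Cga and Tbx19 at 0. The list holds further pituitary genes, whose values are not given here. All 5 tested markers of this list were above 0 in GSK-LSD1 against wild type. There edgeR called Kl and Clic6 higher, limma-voom called Kl and DESeq2 called 0. The part of these tissues in the Nts and Ecel1 values was not tested.

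**Figure D4:**
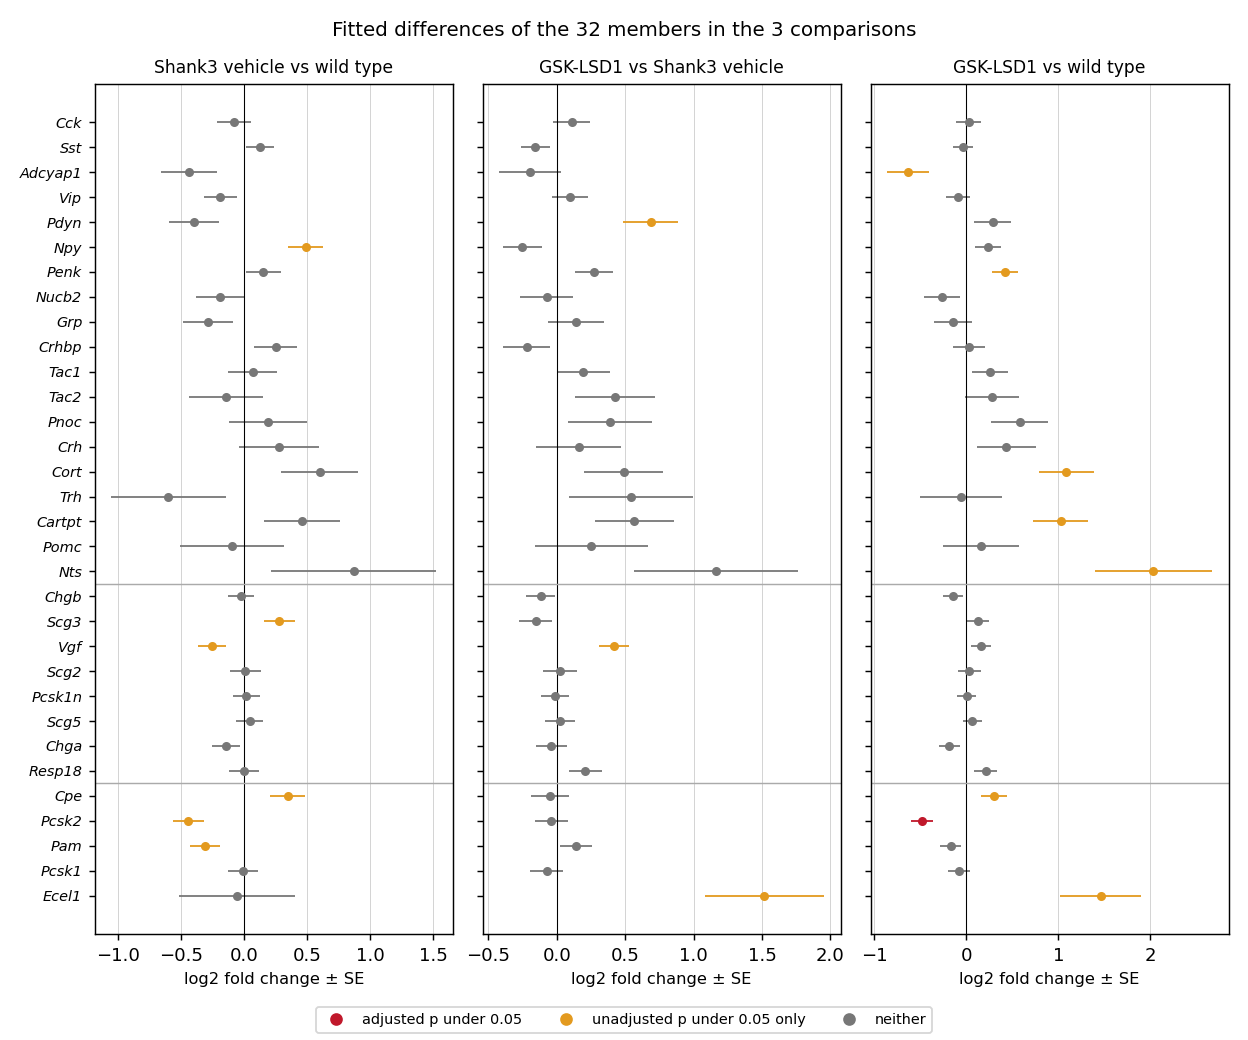
Log2 fold changes of the 32 members in the 3 comparisons, with bars of 1 SE from edgeR; red marks an adjusted p under 0.05, orange an unadjusted p under 0.05 only, and grey neither. Pcsk2 in GSK-LSD1 against wild type, at -0.48, is the single red point.

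GSK-LSD1 in the mutant against vehicle in wild type, a comparison that shares its libraries with the other 2, gave 1 called member of 32 (3.12%, beside 2.62% of all genes). This was Pcsk2, which fell by 0.48 ± 0.12 in log2, or to 0.717 of the wild-type level, with an edgeR adjusted p of 0.0403. Over the 19 alternatives the difference ran from -0.64 to -0.34 and the adjusted p from 0.0016 to 0.44, and the call was lost in 10. It was lost without wild-type library 1 (adjusted p = 0.440) or 2 (0.0687), without Shank3 vehicle library 1 (0.0683) or 2 (0.0563), and without GSK-LSD1 library 2 (0.288). It was also lost with library-size scaling, without the robust option, with the 4 libraries alone, with the exonic length correction and with the oligodendrocyte covariate (-0.41, adjusted p = 0.0585). DESeq2 called 2 members, Pcsk2 and Adcyap1 (6.25%, beside 4.18% of all genes), and limma-voom called Pcsk2 (3.12%, beside 2.09%).

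At an unadjusted p under 0.05, 6 members were higher in this comparison (Cartpt, Cort, Cpe, Ecel1, Nts and Penk, 18.8%, beside 7.11% of all genes) and 2 were lower (Adcyap1 and Pcsk2, 6.25%, beside 8.62%). The treated libraries lay above both wild-type libraries for 9 members (28.1%, beside 23.5%) and below both for 3 (9.38%, beside 22.4%). The median of the 32 was 0.10, beside 0.02 over all tested genes, and -0.08 without GSK-LSD1 library 1. The higher members were mostly of low level. Cartpt (chr13:99898489-99901091, minus strand), which encodes the CART peptides, was at 2.33 and 1.84 CPM in wild type, 2.71 and 2.95 for Shank3 vehicle, and 4.41 and 3.95 under GSK-LSD1. Like Cort, it was lowest in wild type and highest under GSK-LSD1, with no overlap between any 2 groups.

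The log2 difference from wild type was 1.03 ± 0.30 for Cartpt, with an edgeR adjusted p of 0.0805 (0.0666 to 0.304 over the alternatives). For Cort it was 1.09 ± 0.30, with an edgeR adjusted p of 0.0640 (0.0257 to 0.336, passing with no filter on low counts). Sst reads per Cort read were 34.3 and 47.1 in wild type, 26.1 and 33 for Shank3 vehicle, and 23.4 and 14.7 under GSK-LSD1, so the somatostatin relatives did not keep 1 ratio. Penk (chr4:4133531-4138819, minus strand) was at 26.2 and 32.3 CPM under GSK-LSD1, above the other 4 libraries, and differed from wild type by 0.42 ± 0.14 (edgeR adjusted p = 0.130, range 0.0598 to 0.604). Without GSK-LSD1 library 2 the Penk difference was 0.27. The gene shares 233 exonic bases, 14.3% of its exonic length, with the opposite-strand transcript A830012C17Rik, whose reads may not have been told apart. For Ecel1 the difference was 1.46 ± 0.44 (edgeR adjusted p = 0.0925, range 0.00846 to 0.628). It was 1.96 without GSK-LSD1 library 1 (adjusted p = 0.0154), 0.76 without library 2 and 0.97 with the oligodendrocyte covariate, and it passed with no filter on low counts.

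For Nts the difference from wild type was 2.03 ± 0.64 (edgeR adjusted p = 0.141, range 7.43e-04 to 0.799). It was 2.78 without GSK-LSD1 library 1 (adjusted p = 0.00191), 0.60 without library 2 and 0.95 with the oligodendrocyte covariate, and it passed with no filter on low counts. For Cpe it was 0.30 ± 0.14 (edgeR adjusted p = 0.305, range 0.110 to 0.947), and it ran from 0.10 without wild-type library 1 to 0.54 without wild-type library 2, with 0.19 without GSK-LSD1 library 1. Adcyap1 (chr17:93199017-93206537, plus strand) was at 36.1 and 21.3 CPM under GSK-LSD1, below both wild-type libraries. Its difference was -0.63 ± 0.23 (edgeR adjusted p = 0.231, range 2.57e-04 to 0.573), -1.09 without GSK-LSD1 library 1 (adjusted p = 0.00101) and -0.31 without library 2, and it also passed with DESeq2 and with no filter on low counts. The 15 excitatory neuron markers summed to 3971 and 3453 CPM in these 2 libraries, so that library 2 was the lower of the pair in both measures.

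The members not yet described are given by their range. Tac1 and Tac2, the tachykinin precursors, ranged from 8.35 to 11.7 and from 2.90 to 5.43 CPM over the 6 libraries. Crh, corticotropin-releasing hormone, ranged from 2.31 to 3.68 CPM and its binding protein Crhbp from 12.7 to 18.7. Pnoc, the nociceptin precursor, ranged from 2.33 to 5.86 CPM, and Grp, gastrin-releasing peptide, from 10.2 to 17.2 CPM with its extremes both in the GSK-LSD1 group. Pomc ranged from 1.37 to 1.98 CPM and Nucb2, the nesfatin precursor, from 11.4 to 18.6. Centred on each gene's mean, the members' median log2 level was -0.105 and 0.005 in the wild-type libraries, -0.026 and -0.056 in Shank3 vehicle, and 0.133 and -0.093 under GSK-LSD1, against a pooled SD within groups of 0.103. The treated mice stood at the top and near the bottom of this order. Of the granins, Chga ranged from 111 to 145 CPM, Pcsk1n from 181 to 201 and Resp18 from 32.5 to 42.5.

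The values of the 5 members found to hold a full CRE are set side by side here, and a part of that element in them was not tested. Between Shank3 vehicle and GSK-LSD1, Cartpt went from 2.71 and 2.95 to 4.41 and 3.95 CPM, whereas Sst went from 97.2 and 98.6 to 95.3 and 80.2. Scg2 was at 211 and 181 CPM in vehicle and 221 and 178 with the inhibitor, and Chgb at 402 and 382 against 369 and 354. Pcsk1 was at 115 and 113 CPM in vehicle and 118 and 98.6 with the inhibitor. Among 25 activity-regulated genes, the EGR-family factors Egr2 and Egr4 rose with the inhibitor. Egr2 was at 5.61 and 7.91 CPM in wild type, 2.85 and 3.13 for Shank3 vehicle and 12.6 and 18.5 with the inhibitor, a log2 difference of 2.36 ± 0.24 from Shank3 vehicle (edgeR adjusted p = 1.07e-04, at most 0.00652 over the alternatives). Pcsk2, with 3 EGR sites, was at 553 and 520 CPM for Shank3 vehicle and 575 and 470 with the inhibitor, overlapping. The part of EGR factors in the Pcsk2 values was not tested. The 25 genes had a median log2 difference of -0.37 in Shank3 vehicle against wild type, and of 0.59 in GSK-LSD1 against Shank3 vehicle. In the former edgeR called 5 lower and 0 higher, DESeq2 4 and 0, and limma-voom 2 and 0. In the latter edgeR called 2 higher and 0 lower, DESeq2 7 and 0, among them both EGR factors, and limma-voom 4 and 0, with Egr2 but not Egr4. Egr4 differed by 0.89 ± 0.15 from Shank3 vehicle (edgeR adjusted p = 0.0238, at most 0.209), a call lost in 7 of 19 alternatives: without either Shank3 vehicle library or GSK-LSD1 library 2, with limma-voom, with library-size scaling, without the robust option and with the 4 libraries alone. Vgf, itself an activity-induced gene whose promoter was not searched, had the same order of groups as Egr2.

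Around the members, 4 further lists of the pathway were read. Of 37 dense-core vesicle genes, all tested, 2 were lower and 0 higher in Shank3 vehicle against wild type, with a median of -0.05. These were the vesicle membrane proteins Ptprn (IA-2), at 554 and 471 CPM in wild type, 354 and 338 for Shank3 vehicle and 387 and 330 under GSK-LSD1, and its relative Ptprn2, at 564 and 499, 386 and 382, and 425 and 373 CPM. As with Pcsk2, all 4 mutant libraries lay below both wild-type ones for both genes. Ptprn fell by 0.57 ± 0.12 in log2 (edgeR adjusted p = 0.0302, range 2.78e-04 to 0.516) and Ptprn2 fell by 0.47 ± 0.11 (adjusted p = 0.0492, range 0.00143 to 0.586). Both calls were lost without wild-type library 1 and without either Shank3 vehicle library, and that of Ptprn2 also without wild-type library 2. Both were lost too with library-size scaling, without the robust option and with the oligodendrocyte covariate (Ptprn -0.44, adjusted p = 0.299; Ptprn2 -0.36, adjusted p = 0.417). That of Ptprn2 was further lost with upper quartile scaling, limma-voom and the length correction, in 10 of 19 alternatives in all. In GSK-LSD1 against wild type 1 was lower, Ptprn at -0.51 ± 0.12 (edgeR adjusted p = 0.0262, range 7.31e-04 to 0.421), a call lost without wild-type library 1 or GSK-LSD1 library 2, with library-size scaling and with the 4 libraries alone.

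In GSK-LSD1 against Shank3 vehicle the same list had 2 higher and 0 lower, with a median of 0.02. These were Baiap3 and Doc2b, both calcium-linked release factors. Baiap3 was at 8.76 and 7.37 CPM in wild type, 11.6 and 6.89 for Shank3 vehicle and 42.4 and 51.7 under GSK-LSD1, 5.08-fold above Shank3 vehicle (edgeR adjusted p = 3.43e-04, at most 0.0240 over the alternatives). Doc2b was at 16.4 and 11.9, 11.3 and 11.3, and 24.3 and 23.2 CPM, 2.10-fold above Shank3 vehicle (edgeR adjusted p = 0.0108, at most 0.0897). That call was lost without either Shank3 vehicle library, while the log2 difference ran from 1.03 to 1.11. Against wild type both were higher as well, by 2.55 ± 0.22 for Baiap3 (edgeR adjusted p = 5.38e-04, at most 0.0325) and by 0.76 ± 0.17 for Doc2b (adjusted p = 0.0209, at most 0.167). The Doc2b call against wild type was lost without any 1 of the wild-type or GSK-LSD1 libraries.

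Of 33 other convertases and peptide-modifying enzymes, 31 were tested and 0 passed edgeR's adjusted threshold in any comparison. At an unadjusted p under 0.05, 4 were higher and 4 lower in Shank3 vehicle against wild type, 2 higher and 0 lower in GSK-LSD1 against Shank3 vehicle, and 4 higher and 3 lower in GSK-LSD1 against wild type. DESeq2 called 1 of these enzymes, Lnpep, lower in the last comparison, and limma-voom called 0. Of 46 other peptide precursors, 15 were tested, and Apln, which encodes the vascular peptide apelin, rose in Shank3 vehicle. Apln was at 20.8 and 24.9 CPM in wild type, 37.4 and 37.7 for Shank3 vehicle and 27.4 and 35.4 under GSK-LSD1, with all mutant libraries above both wild-type ones. Its log2 difference in Shank3 vehicle was 0.71 ± 0.14 (edgeR adjusted p = 0.0267, range 1.01e-04 to 0.445), a call lost without wild-type library 1 or either Shank3 vehicle library. It was also lost with library-size scaling, without the robust option and with the oligodendrocyte covariate (0.47, adjusted p = 0.417).

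Of 41 peptide receptors, 33 were tested, and their median log2 difference was -0.20 in Shank3 vehicle against wild type, with 24 below 0, 1 called lower and 0 higher. The called gene was Sstr2, a somatostatin receptor, at 40.8 and 36.2 CPM in wild type, 25.8 and 25.7 for Shank3 vehicle, and 34 and 31.4 under GSK-LSD1. The 3 groups did not overlap, and its ligand precursors Sst and Cort were not lower. Sstr2 fell by 0.58 ± 0.12 in log2 (edgeR adjusted p = 0.0302, range 0.00193 to 0.471), a call lost without wild-type library 1 or either Shank3 vehicle library. Library-size scaling, leaving off the robust option and the oligodendrocyte covariate (-0.52, adjusted p = 0.284) ended the Sstr2 call as well. In GSK-LSD1 against Shank3 vehicle 0 receptors were called by edgeR (5 higher and 1 lower at an unadjusted p under 0.05), and the other tools, DESeq2 and limma-voom, called 0 as well.

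In GSK-LSD1 against wild type 1 receptor was higher and 1 lower. The delta opioid receptor Oprd1 was at 30.1 and 24.2 CPM in wild type, 23.0 and 24.1 for Shank3 vehicle, and 16.6 and 17.4 under GSK-LSD1, below every other library. It fell by 0.67 ± 0.14 in log2 (edgeR adjusted p = 0.0195, range 9.70e-04 to 0.319), a call lost without wild-type library 1 or either GSK-LSD1 library and with library-size scaling. The oxytocin receptor Oxtr was at 7.67 and 5.49, 6.11 and 6.94, and 11.9 and 10.7 CPM, above every other library under GSK-LSD1. Its log2 difference of 0.80 ± 0.21 had an edgeR adjusted p of 0.0498 (0.0109 to 0.296) and was lost in 14 of 19 alternatives, among them leaving out either wild-type library, Shank3 vehicle library 1 or either GSK-LSD1 library. Its ligand precursor Oxt had at most 2 reads in any library.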

How the data were processed

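The authors deposited unnormalized counts of reads by gene symbol, separately for each library, made with cutadapt, TopHat2, SAMtools and featureCounts on mm10 (GRCm38), per the submitters' processing notes, which also name edgeR. Not given in the sources used here: versions, annotation and strand setting. Here, edgeR 4.0.16 (R 4.3.3) fitted 1 quasi-likelihood model (robust option, group as the single factor) to the 6 libraries, after filterByExpr and TMM scaling. The fit had 3 residual degrees of freedom, and the biological coefficient of variation was 11.5%. Two-sided p-values received Benjamini-Hochberg adjustment over all 18705 tested genes. SEs were obtained from each log2 fold change and its F statistic. DESeq2 1.42.0 and limma-voom (limma 3.58.1) were alternatives, and the tests were checked on simulated counts. Alternatives with a correction for exonic length and with an oligodendrocyte covariate were chosen after seeing the data. The covariate was fitted mainly from the GSK-LSD1 pair, so its results do not separate cell composition from genotype. Fold changes are given for members with an unadjusted p under 0.05 or among the 3 largest of a comparison, and for up to 4 called genes of each other list. Members and lists were chosen with earlier results of these data known. Coordinates and exonic lengths are from GENCODE M21 (GRCm38). The SEs and SDs include the spread between libraries, whereas the floor covers counting error only. Counts of same-group replicates differed beyond sampling noise, with a chi-square per degree of freedom of 9.94, 9.99 and 13.3. None was thus the same library sequenced again, but this cannot tell separate mice from separate preparations of the same mouse. Replicate numbers did not pair the groups (correlation of replicate differences -0.08, -0.07 and 0.157 across genes).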

Additional observations from a re-analysis of the deposited data

How the results depend on the processing

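The count of called members in Shank3 vehicle against wild type was 0, and it became 3 with no filter on low counts, 1 with DESeq2, 2 with the 4 libraries alone, 1 with the oligodendrocyte covariate, and 0 to 3 when 1 library was left out. The members' median there was 0.18 with the oligodendrocyte covariate. In GSK-LSD1 against Shank3 vehicle the count of 0 became 2 with no filter and 0 to 1 with 1 library left out (Pdyn, without GSK-LSD1 library 2). The median of 0.13 ran from -0.04 to 0.14 with 1 library left out and was -0.03 with the oligodendrocyte covariate. In GSK-LSD1 against wild type the count of 1 became 5 with no filter and 2 with DESeq2. It became 0 with library-size scaling, without the robust option, with the 4 libraries alone, with the length correction and with the oligodendrocyte covariate, and ran from 0 to 4 with 1 library left out. The median of 0.10 ran from -0.08 to 0.18. Over the same omissions Trh in Shank3 vehicle against wild type ran from -1.16 to 0.10 and Nts in GSK-LSD1 against Shank3 vehicle from -0.27 to 1.92, and Nts in the former was -0.82 with the oligodendrocyte covariate. The causes were not tested.

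With the replicate block as a paired fit, 0, 0 and 1 members were called, the 1 being Pcsk2 (-0.48, edgeR adjusted p = 0.0315). Over all genes the block gave 233, 18 and 505 calls, beside 238, 20 and 491. Counts over all genes ran from 6 to 807, from 10 to 106 and from 6 to 962 over the alternatives, and leaving out wild-type library 1 gave 6 calls in both comparisons with wild type. For members near 1 CPM, such as Nts, Ecel1, Trh and Pomc, depth limits the precision, and Gal, Hcrt, Oxt and Avp lay at or near the floor.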
